A study of Oryza sativa with 12 samples.

Results

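Stem bases of rice seedlings that carried the crl1 mutation were compared with those of wild type before any auxin was given. The comparison rests on the 4 arrays labelled untreated, 2 of crl1 and 2 of wild type, out of 12 arrays in the series. Both genotypes are of Oryza sativa cultivar Taichung 65, were 8 days old, had been moved to liquid medium a day earlier, and had received no indole-3-acetic acid at sampling. The labels give no allele for crl1 beyond that name. Each array holds total RNA pooled from 20 stem bases, so it averages over plants and over every cell type of the stem base. The other 8 arrays hold the same genotypes 2 h and 4 h after 1e-06 M auxin. They entered the filter of probe sets and the estimate of the spread, and the genotype differences found before auxin were read in them again. The repetition numbers 1 and 2 stand for independent repetitions of the experiment, and p-values measure the spread between these repetitions. With 2 arrays for each genotype, precision is low.

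In rice most of the root system consists of crown roots, which start from cells inside the stem base and not from an existing root. CROWN ROOTLESS 1 is a transcription factor of the LATERAL ORGAN BOUNDARIES DOMAIN family that acts downstream of auxin response factors, and plants without it form no crown root primordia. Auxin reaches its sites of action through PIN efflux carriers, is sensed by the breakdown of Aux/IAA repressors, and is removed again by conjugating and methylating enzymes. The CRL1 transcript itself was not analysed here, since no probe set could be paired with that name, so the labels were not checked against the mutated gene. PIN1A was likewise not analysed here.

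Values are MAS5 signals, the Affymetrix summary of the probes of 1 probe set, in arbitrary units, and differences are log2 signal in crl1 minus log2 signal in wild type. Background on each array was set at the 95th percentile of 64 reporter probe sets for genes that rice lacks. It was 12.6 and 10.5 on the crl1 arrays and 5.83 and 10.1 on the wild-type arrays. Of the rice probe sets 47.1% and 50.4% lay above it in crl1, and 57% and 51% in wild type. Across the probe sets tested, which are not independent replicates, crl1 repetitions 1 and 2 correlated at r = 0.944 and the wild-type repetitions at 0.959. Repetition 2 of crl1 correlated with repetition 2 of wild type at 0.95, slightly above its correlation with the other crl1 array. Array 2 of wild type at 2 h stood apart from the rest of the series, with an 18S ribosomal RNA signal of 556 where the other arrays had at least 3399. In the main model that array bears on the values before auxin only through the filter and the estimate of the spread.

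Of the 3 controls of RNA integrity examined, GAPDH and actin differed between the genotypes and cyclophilin did not separate them. The array holds 2 sets of rice GAPDH controls. Which set to use was a choice, and the other set and the ubiquitin controls are not reported here. On this array the ratio of the 3' to the 5' probe set of GAPDH grows as transcripts are shortened. It was 3.08 and 8.72 in crl1, against 9.41 and 17.3 in wild type, and the same ratio for actin was 14.8 and 23.0 in crl1, against 24.6 and 40.4 in wild type. The GAPDH ratios of the genotypes did not overlap, although those of crl1 repetition 2 and wild type repetition 1 lay close together. The actin ratios did not overlap either, again with a small gap between the same arrays. The cyclophilin ratio was 2.16 and 2.43 in crl1, against 2.18 and 2.95 in wild type, so its arrays overlapped and those of repetition 1 were nearly equal. Within each repetition all 3 ratios were lower in crl1.

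Before auxin 33 of 32524 probe sets passed the test (limma, Benjamini-Hochberg adjusted p under 0.05), which is 0.101% of those tested. Of these, 29 were lower in crl1 (0.0892%) and 4 were higher (0.0123%). At an unadjusted p under 0.05 there were 2945, or 9.05%. The 29 that fell ranged from -7.08 to -1.43 on the log2 scale and the 4 that rose from 1.57 to 2.87. The middle of all probe sets lay close to 0, with a median difference of -0.03 and a 5th to 95th percentile range of -0.94 to 0.94. A difference below 0 was found in 53.1% of them, and a difference of at least 2-fold in 8.78%, split into 4.37% lower and 4.41% higher in crl1. In all 33 both crl1 arrays lay on the same side of both wild-type arrays, an order that 42.6% of all tested probe sets showed, 24.3% with crl1 lower and 18.3% with crl1 higher. In 11 of the 29 that fell both crl1 signals were at or below background, and in 18 at least 1 crl1 array was above it. A lower signal from pooled tissue can come from fewer cells of a type or from less RNA per cell, and these cannot be told apart here. The 33 probe sets include 25 that match exactly 1 gene, 23 genes in all, of which 5 have a name: AGGLUTININ, LOX3, IPA1, RAA1 and PIN2.

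The count depended on single arrays. With the repetition as a block in the model 71 probe sets passed (0.218%), and all 33 were among them. Without wild type repetition 1 the count was 0 by limma, with 1725 at an unadjusted p under 0.05. It was 7 without wild type repetition 2, 9 without crl1 repetition 1 and 30 without crl1 repetition 2. For each of the 33 the highest adjusted p with 1 array left out came without a wild-type array of the same time, and it ran from 0.057 to 0.37. When the GAPDH ratio of each array was put in the model as a covariate 31 probe sets passed, and 25 of the 33 were among them. All 33 kept their sign with it, and their log2 differences moved by -0.45 to 0.60. The effect of the ratio was fitted over all 12 arrays. The ratio was 3.84 and 35.6 on the wild-type arrays at 2 h, so the array that stood apart weighs on every value given with the ratio in the model.

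**Figure D1:**
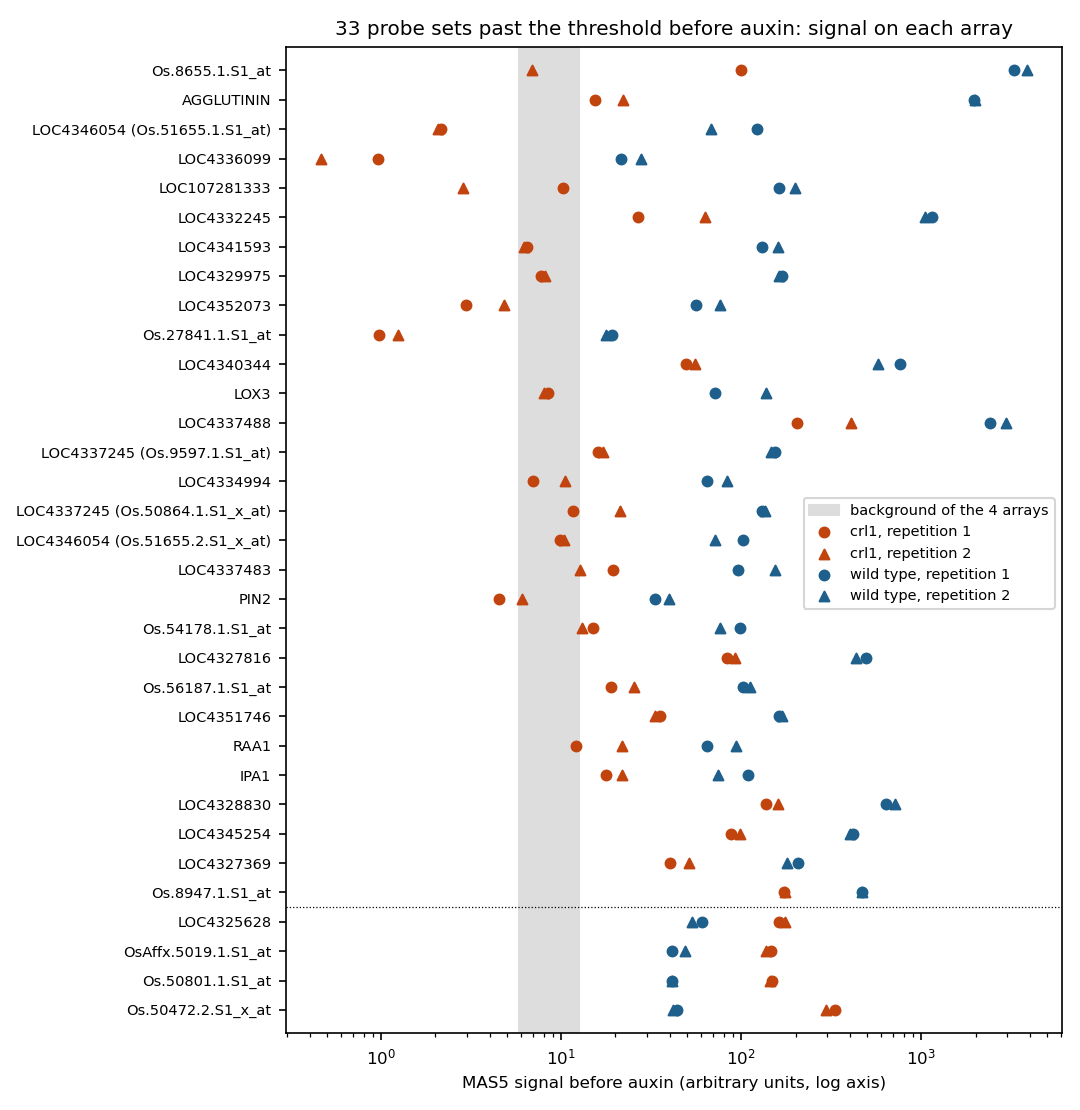
MAS5 signal on each of the 4 untreated arrays (log axis, arbitrary units) for the 33 probe sets that passed before auxin, ordered by their log2 difference, with crl1 in orange, wild type in blue, circles for repetition 1 and triangles for repetition 2; the grey band spans the background of the 4 arrays, 5.83 to 12.6. The 29 rows above the dotted line are lower in crl1 and the 4 below it higher, and in 11 rows both crl1 points lie at or below the background of their arrays.

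Both genes known from root growth were at or close to background in crl1. PIN2 (LOC4341736) is an efflux carrier that moves auxin away from the root tip through the outer root layers. Its signals were 4.53 and 6.02 in crl1, both below background, against 33.3 and 39.8 in wild type, where both arrays lay above it. PIN2 was lower in crl1 by at least 3.17-fold when set against background, and the fitted log2 difference was -2.80 ± 0.39 (SE, n = 2 arrays per genotype, limma adjusted p = 0.027). RAA1 (LOC4326229), named for its effect on root architecture in rice, had signals of 12.1 and 21.8 in crl1, against 64.4 and 94.0 in wild type. The groups did not overlap, and crl1 repetition 1 was below the background of its array while repetition 2 was above. RAA1 fell by a log2 difference of -2.26 ± 0.32 (adjusted p = 0.027). With the GAPDH ratio in the model PIN2 was at -2.88 (adjusted p = 0.046) and RAA1 at -2.15, which missed the threshold (0.059). In a fit on the 4 untreated arrays alone the adjusted p was 0.096 for PIN2 and 0.14 for RAA1. Without wild type repetition 2 it was 0.3 for each.

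No other auxin carrier passed. Of 5 tested 3 lay above 0 and 2 below, and the median was 0.02, against -0.05 over all 16438 genes tested, of which 22 fell and 1 rose past the test. With the GAPDH ratio in the model the median of the carriers was -0.42. PIN10A, another PIN carrier, had signals of 243 and 346 in crl1, against 193 and 246 in wild type, so the genotypes overlapped. The root patterning list held 4 genes, with RAA1 the only one past the test and a median of -0.16. SHR1 and SCR1, transcription factors that pattern the root's ground tissue, were at -0.31 ± 0.32 and 0.07 ± 0.43, and their arrays overlapped. The summed signal of this root list was 125 and 177 in crl1, against 179.8 and 269.7 in wild type, so its highest crl1 array lay just below its lowest wild-type array. RAA1 is part of that sum and was the only one of the 4 genes with arrays apart, so the sum says nothing separate about the others.

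IPA1 (LOC4345998), also called SPL14, is a transcription factor of the SQUAMOSA PROMOTER BINDING PROTEIN-LIKE family that limits tillering in rice. It had signals of 17.7 and 21.7 in crl1, against 108 and 74.6 in wild type, all above background. IPA1 was lower in crl1 on every comparison of single arrays, with a log2 difference of -2.20 ± 0.30 (adjusted p = 0.027) and a 4.58-fold higher geometric mean in wild type. Without wild type repetition 1 its adjusted p was 0.26. It was the only one of 11 SPL factors past the test. Of the 11, 9 lay below 0 and 2 above, with a median of -0.32, and in 9 the arrays did not overlap, 7 of them lower in crl1, where 42.9% of all genes had arrays apart.

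Among those SPL factors SPL12 (LOC4341986) had 66.4 and 65.9 in crl1, against 127 and 157 in wild type. Its arrays were apart, but the difference of -1.09 ± 0.31 did not pass (adjusted p = 0.37). SPL8, at 4.20 and 15.2 in crl1 and 20.4 and 28.0 in wild type, straddled background in crl1 (-1.58 ± 0.59, adjusted p = 0.47). SPL15 (LOC4346023) went the other way, with 3418 and 2491 in crl1, against 1724 and 1912 in wild type (0.68 ± 0.20, adjusted p = 0.38). The SPL list thus held 1 gene with a change past the test and values in both directions beside it.

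AGGLUTININ (LOC4335068), a lectin and so a protein that binds sugar chains, had signals of 15.4 and 22.2 in crl1, against 1966 and 1986 in wild type. Its crl1 arrays were little above background and its wild-type arrays were nearly equal. AGGLUTININ fell by a log2 difference of -6.74 ± 0.66 (adjusted p = 0.0032), a 107-fold higher geometric mean in wild type. Leaving out 1 array at a time, it passed in 9 of 12 fits, with an adjusted p of up to 0.065 without wild type repetition 1, and passed in all 11 other settings. The other lectin tested, SALT (LOC4326471), a salt-induced mannose-binding protein, was at 4325 and 6184 in crl1 and 3959 and 4798 in wild type, with overlapping arrays (0.25 ± 0.31, adjusted p = 0.85).

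LOX3 (LOC4333818) is a lipoxygenase, an enzyme that oxidises fatty acids. Some lipoxygenases take the first step on the way to jasmonate, and whether LOX3 does was not tested. LOX3 had signals of 8.49 and 8.00 in crl1, both below background, against 71.5 and 137 in wild type. The wild-type arrays differed from each other by more than the crl1 arrays did, and the genotypes were far apart. LOX3 was lower in crl1 by at least 8.60-fold against background (log2 difference -3.58 ± 0.50, adjusted p = 0.027). Its adjusted p was 0.3 without wild type repetition 2.

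The lipoxygenase and jasmonate list did not follow LOX3. Of its 31 genes LOX3 alone passed, while 20 lay above 0 and 11 below, with a median of 0.13. LOX1.1 (LOC4334049) had 17.7 and 16.9 in crl1, against 53.3 and 97.0 in wild type, without overlap but short of the threshold (-2.05 ± 0.65, adjusted p = 0.4). The oxophytodienoate reductases OPR7 and OPR5, enzymes of the jasmonate route, were at 0.79 ± 0.36 and 0.74 ± 0.37 with crl1 on the higher side, both with an adjusted p of at least 0.55. A different probe set of OPR5 lay at -0.15, so even the sign of that gene depended on the probe set.

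The remaining 18 genes past the test have no name beyond a LOC number in the gene table used, and no role is given to them here. The smallest adjusted p values, 0.0014, belonged to LOC4341593 and LOC4327816. LOC4341593 had signals of 6.43 and 6.18 in crl1, against 129.9 and 160.1 in wild type. Both crl1 arrays lay below background, which makes it at least 12.5-fold lower (fitted log2 difference -4.52 ± 0.36). LOC4327816 had 82.8 and 92.2 in crl1, well above background, against 494 and 432 in wild type. It was reduced in crl1 but clearly detected there (-2.40 ± 0.19).

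The same contrast between loss to background and partial reduction ran through the others. LOC4332245 had 26.8 and 63.2 in crl1, against 1142 and 1042 in wild type, a fall that left both crl1 arrays above background (-4.73 ± 0.41, adjusted p = 0.0017). LOC4345254, at 87.6 and 98.5 in crl1 and 416 and 402 in wild type (-2.14 ± 0.19), and LOC4328830, at 136 and 159 in crl1 and 637 and 711 in wild type (-2.19 ± 0.21), were reduced by similar amounts with close arrays. LOC4340344 had 49.0 and 55.6 in crl1, against 759 and 573 in wild type (-3.66 ± 0.37). These genes, LOC4341593 and LOC4327816 passed in at least 10 of 12 fits when each array was omitted in turn. LOC4337488 had 205 and 405 in crl1, against 2399 and 2939.9 in wild type, so the crl1 arrays were apart from each other and still far below wild type (-3.21 ± 0.44). LOC4351746 had 35.4 and 33.2 in crl1, against 162 and 168 in wild type (-2.27 ± 0.27, adjusted p = 0.012). LOC4327369 had 39.9 and 50.9 in crl1, against 206 and 179 in wild type (-2.09 ± 0.26, adjusted p = 0.018).

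At background in crl1 were LOC107281333, with 10.2 and 2.87 in crl1, against 162 and 199.6 in wild type, at least 15.7-fold lower, and LOC4329975, with 7.73 and 8.15 in crl1, against 168 and 161 in wild type, at least 14.3-fold lower. LOC4352073 (at least 5.71-fold), LOC4334994 (at least 6.41-fold) and LOC4336099 (at least 2.12-fold) were in the same state. Their wild-type signals ran from 21.4 to 83.7. When arrays were omitted in turn these last 3 passed in at most 4 of 12 fits, and none passed with the GAPDH ratio in the model.

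Of the genes past the test with a pair of tested probe sets, LOC4346054 and LOC4337245 had the same direction on both. LOC4325628, described below, did not. LOC4346054 was lower by -5.43 ± 0.54 on one and -3.07 ± 0.43 on the other, with all crl1 signals below background, between 2.06 and 10.4. LOC4337245 was lower by -3.17 ± 0.33 and -3.08 ± 0.40, and both of its probe sets had crl1 signals between 11.7 and 21.3, against 131 to 154 in wild type. In order along the genome LOC4337488 and LOC4337483 were the nearest pair of genes past the test, with 3 protein-coding genes between them. The next pairs were LOC4346054 and IPA1, with 58, and LOC4341593 and LOC107281333, with 83. Whether this spacing differs from that of other genes was not tested.

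Of the 8 probe sets without a single gene, 5 fell. The largest fall of all was in one of these, with signals of 99.6 and 6.86 in crl1, against 3266 and 3847 in wild type. The crl1 arrays disagreed widely, with repetition 2 below background and repetition 1 well above it, while wild type was high on both arrays (-7.08 ± 0.88, adjusted p = 0.018). After auxin all 4 crl1 arrays were between 3.98 and 9.96, so the array with 99.6 was the only one of 6 crl1 arrays clearly above background. Another had the smallest fall of the 29, with 173 and 175 in crl1, against 467 and 468 in wild type (-1.43 ± 0.21, adjusted p = 0.038).

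The 4 probe sets that rose were above background in both genotypes. The largest rise, in a probe set without a gene, was at 330.5 and 297 in crl1, against 43.8 and 41.7 in wild type (2.87 ± 0.39, adjusted p = 0.027). A second without a gene had 147 and 144 in crl1, against 41.1 and 41.2 in wild type (1.82 ± 0.25), and the third had 147 and 137 in crl1, against 41.0 and 48.5 in wild type (1.67 ± 0.25). Replicate arrays were close in all of them. LOC4325628 was the only gene, with 163 and 174 in crl1, against 60.5 and 53.0 in wild type (1.57 ± 0.22, adjusted p = 0.027). Its other probe set gave 6.38 and 7.55 in crl1, both below background, against 22 and 20.9 in wild type, a difference of -1.63 in the opposite direction that did not pass (adjusted p = 0.5). The direction for this gene therefore depends on the probe set.

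The same differences were then read in the 8 arrays taken after auxin. These arrays are not independent of the choice of the 33, since they entered the filter and the estimate of the spread. Without any 1 of the 4 h arrays 18 or 19 probe sets passed before auxin, and 23 of the 33 passed in a fit on the 4 untreated arrays alone. Of the 29 that fell before auxin, 29 lay below 0 at 2 h and 28 at 4 h, and all 4 that rose lay above 0 at both times. The arrays of the genotypes lay apart on the same side for 33 of 33 at 2 h and 32 of 33 at 4 h. Over all probe sets, crl1 lay below wild type without overlap in 15.7% at 2 h and 20.5% at 4 h, and above it in 21.7% and 23.5%. Of the 33, 18 also passed at 2 h, where 0.0738% of all probe sets did (0.0615% lower and 0.0123% higher in crl1). At 4 h 15 passed, where 0.0799% of all did (0.0523% lower and 0.0277% higher). At an unadjusted p under 0.05 the shares over all probe sets were 11% at 2 h and 7.36% at 4 h. The 15 at 4 h were among the 18 at 2 h, and the other 15 passed before auxin only.

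The differences after auxin were often smaller than before it. The median over the 29 that fell was -3.11 before auxin, -2.56 at 2 h and -2.28 at 4 h, and the difference was smaller in size in 22 at 2 h and in 26 at 4 h. Since these probe sets were chosen for their size before auxin, smaller values elsewhere follow in part from the choice. The change in the genotype difference itself did not pass for any probe set. By limma 0 of 32524 passed for 2 h minus 0 h and 0 for 4 h minus 0 h, with 1831 (5.63%) and 1090 (3.35%) at an unadjusted p under 0.05. Among the 33 the smallest adjusted p was 0.87 at 2 h and 0.99 at 4 h. Without wild type 2 h repetition 1, which leaves only the array that stood apart in its group, the 2 h count was 1022.

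Single genes differed in how they behaved after auxin. AGGLUTININ had 10.7 and 17.2 in crl1 at 2 h, against 1494 and 2454 in wild type, and 9.38 and 59.8 at 4 h, against 2081 and 1391. The highest crl1 signal of LOX3 was 10.4, and its differences of -3.50 at 2 h and -3.33 at 4 h both passed. The gap of RAA1 was -0.60 at 2 h and -0.98 at 4 h, with crl1 signals of 39.2 and 39.5 at 2 h, against 63.0 and 56.4 in wild type. The gap of PIN2 was -1.33 at 2 h and -1.24 at 4 h. Neither gene passed at those times, and the changes of their gaps did not pass either.

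LOC4337483 was the exception to the common direction. It had 19.3 and 12.7 in crl1 before auxin, against 95.9 and 154 in wild type (-2.95 ± 0.45, adjusted p = 0.045). At 4 h it had 164 and 70.4 in crl1, against 86.4 and 134 in wild type, with the wild-type arrays lying between the crl1 arrays. The difference at 4 h was 0.00, and the change from 0 h did not pass after adjustment (0.99). Its near neighbour LOC4337488 was still at -2.22 at 4 h (adjusted p = 0.15).

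**Figure D2:**
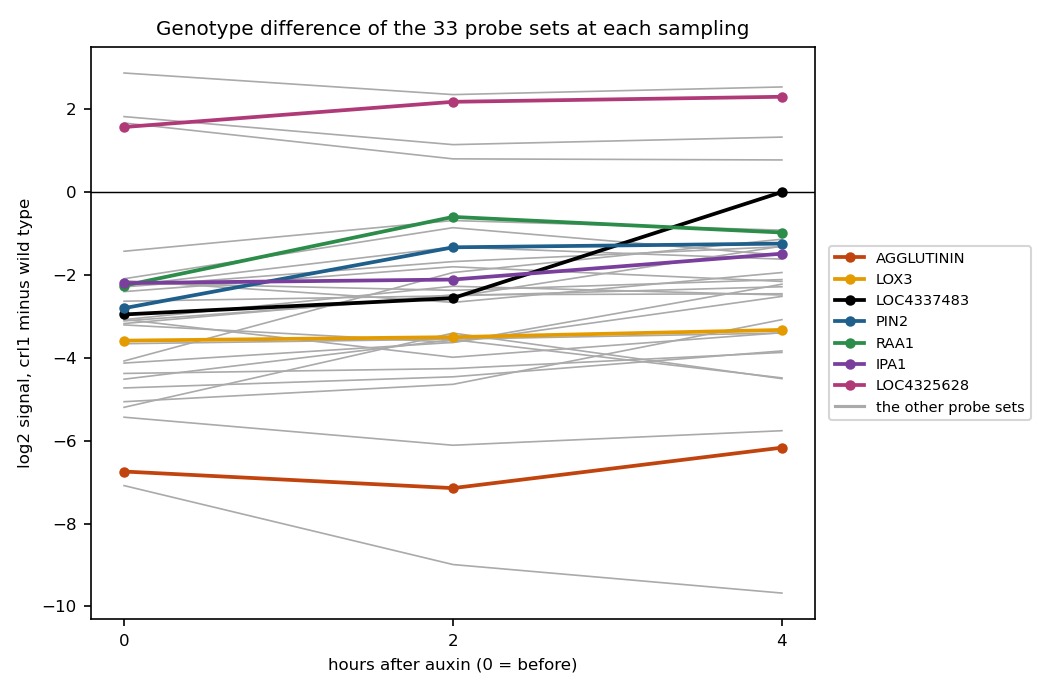
Log2 signal in crl1 minus wild type (vertical axis) before auxin and 2 h and 4 h after it (horizontal axis) for the 33 probe sets that passed before auxin, with 7 genes in colour and the others in grey; each line is 1 probe set and each point a difference of 2 against 2 arrays. AGGLUTININ and LOX3 stay near their value before auxin, RAA1 and PIN2 lie nearer to 0 after it, LOC4337483 reaches 0.00 at 4 h and LOC4325628 stays above 0.

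**Figure D3:**
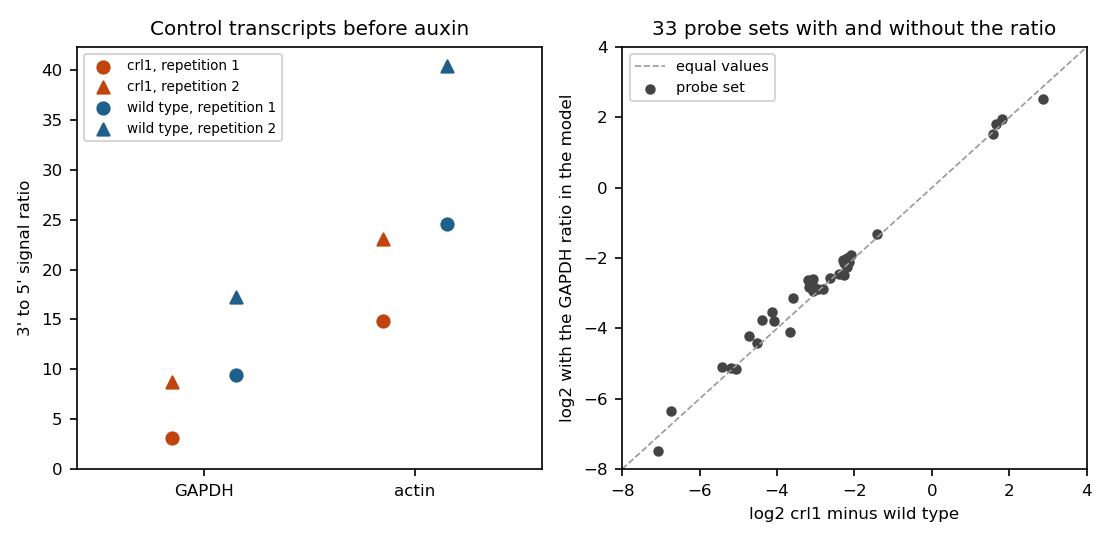
Left, ratio of 3' to 5' signal of the GAPDH and actin controls on each untreated array, with crl1 in orange left of wild type in blue; both ratios are lower in crl1 within each repetition. Right, log2 difference of the 33 probe sets before auxin (horizontal) against the same with the GAPDH ratio in the model (vertical), where all 33 keep their sign and the dashed line marks equal values.

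No gene of the auxin signalling lists passed before auxin. Of 25 Aux/IAA repressors none passed, 17 lay below 0 and 8 above, with a median of -0.08. IAA26 (LOC4347643) had 4.35 and 6.38 in crl1, both below background, against 16.8 and 18.8 in wild type (-1.76 ± 0.60, adjusted p = 0.43). IAA2 had 632 and 930.0 in crl1, against 1051 and 1128 in wild type (-0.51 ± 0.22, adjusted p = 0.54). The list as a whole stayed close to the -0.05 of all genes.

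Auxin response factors, which bind DNA and carry the response, lay below 0 in 13 of 16 genes, with a median of -0.29 and none past the test. In 10 of the 16 the arrays did not overlap, 7 with crl1 lower, against 42.9% of all genes. ARF1 LOC4350610 had 371 and 533 in crl1, against 663 and 747 in wild type (-0.66 ± 0.28, adjusted p = 0.53), while ARF3 (LOC4327014) had 410.1 and 279.6 in crl1, against 211 and 205 in wild type (0.70 ± 0.32, adjusted p = 0.55). The median was -0.43 within repetition 1, -0.07 within repetition 2 and -0.10 with the GAPDH ratio in the model. The shift was larger in the repetition whose crl1 array had the lowest GAPDH ratio, and the part of RNA integrity in it was not tested further.

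Enzymes that inactivate auxin lay below 0 in 8 of 9, with a median of -0.39 and none past the test. IAMT1 (LOC4337315), which methylates indole-3-acetic acid, had 4.55 and 4.67 in crl1, both below background, against 60.3 and 39.8 in wild type. IAMT1 was at least 4.26-fold lower in crl1 when set against background. Its fitted log2 difference of -3.41 ± 0.55 fell just short of the threshold (limma adjusted p = 0.06). It passed in 4 of 11 other settings, the repetition block among them (0.049). The GH3 enzymes, which join auxin to amino acids, were closer together. GH3.1 had 191 and 277 in crl1, against 293 and 383 in wild type (-0.54 ± 0.33), and GH3.7 had 57.1 and 48.1 in crl1, against 93.8 and 70.1 in wild type (-0.63 ± 0.25). With the GAPDH ratio in the model the median was -0.15.

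Cytokinin opposes auxin in many root tissues, and its genes showed no call. The type-A response regulators, which damp cytokinin signalling, lay below 0 in 4 of 5, with a median of -0.29. RR2 had 85.1 and 84.6 in crl1, against 123 and 87.5 in wild type (-0.29 ± 0.31, adjusted p = 0.81), and RR1 had 48.0 and 39.8 in crl1, against 40.9 and 40.9 in wild type (0.10 ± 0.42, adjusted p = 0.96). Of 12 genes for cytokinin breakdown and activation, 7 lay above 0 and 5 below. CKX5, a cytokinin oxidase, was at -1.15 ± 0.32 (adjusted p = 0.36) and LOGL1, an activating enzyme, at 0.81 ± 0.35 (0.54), both with arrays apart.

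The WUSCHEL-related homeobox genes include WOX11, which promotes crown root emergence in rice, and WOX9 (also QHB), which marks the quiescent centre of the root tip. WOX11 had 414 and 362 in crl1, against 362 and 452 in wild type, with fully overlapping arrays (-0.07 ± 0.26, adjusted p = 0.96). WOX9 had 5.47 and 6.32 in crl1, both below background, against 13.1 and 16.4 in wild type, where both were above it. The arrays of WOX9 were apart, but its difference of -1.32 ± 0.56 did not pass (adjusted p = 0.53). WOX6 had 70.4 and 67.6 in crl1, against 105 and 104 in wild type (-0.60 ± 0.23, adjusted p = 0.48). None of 5 WOX genes passed, 4 lay below 0 and the median was -0.36.

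Markers of the shoot were measured in both genotypes, which bears on the label of the tissue. OSH1, a KNOX factor of the shoot meristem, had 903 and 892 in crl1, against 915 and 1389.9 in wild type (-0.33 ± 0.31, adjusted p = 0.78). The 10 KNOX and shoot meristem genes split evenly, 5 above 0 and 5 below, with a median of 0.00, and their summed signal was 5417 and 5884 in crl1, against 5627 and 5914 in wild type. The photosynthesis list summed to 13768 and 18046 in crl1, against 14799 and 16464 in wild type, with overlapping arrays and a median of 0.15 over 6 genes. RCAA1, which activates Rubisco, and RBCS, the small subunit of Rubisco, had arrays apart with crl1 lower (-0.41 ± 0.25 and -0.25 ± 0.22) and did not pass. By these lists leaf and shoot signals were of like size in the genotypes, and no member changed past the test.

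Among other transcription factors some had crl1 signals at background without passing. NAC076 (LOC4341201) had 5.88 and 0.98 in crl1, below background, against 59.5 and 45.4 in wild type (-4.44 ± 0.87, adjusted p = 0.14). HOX14 (LOC4343726), a homeodomain-leucine zipper factor, had 0.93 and 17.2 in crl1, against 95.9 and 100.4 in wild type (-4.61 ± 0.96, adjusted p = 0.17). The crl1 arrays of HOX14 lay on both sides of background. HOX12 was at -1.82 ± 0.38 (adjusted p = 0.18). None passed among 7 NAC, 31 HOX and ROC, 17 MADS or 5 WRKY genes, whose medians were -0.21, -0.11, -0.10 and 0.10. MADS1 was at 1.66 ± 0.90 and WRKY76 at 1.21 ± 0.62, each with crl1 arrays above wild type and neither past the test.

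Genes of the cell wall held single large differences and medians near 0. EXPB18 (LOC4338206), a beta-expansin that loosens walls, had 4.62 and 2.94 in crl1, both below background, against 57.4 and 40.1 in wild type (-3.70 ± 0.59, adjusted p = 0.059). CSLC3 (LOC4345095), of a family that builds the backbone of xyloglucan, had 4.05 and 2.86 in crl1, below background, against 34.5 and 67.8 in wild type (-3.83 ± 0.72, adjusted p = 0.12). With the repetition as a block both passed (0.049). Other expansins lay the opposite way: EXPB2 had 339 and 430.4 in crl1, against 93.0 and 170.1 in wild type (1.6 ± 0.47, adjusted p = 0.38). Over 25 expansins and xyloglucan endotransglucosylases the median was 0.06, and over 27 cellulose synthases and related genes it was 0.00, with none past the test in either list.

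No transporter passed. The sodium transporter HKT1.5 (LOC4327757) had 9.80 and 1.12 in crl1, below background, against 22.4 and 26.7 in wild type (-2.89 ± 1.0, adjusted p = 0.44). IRT1 (LOC4333669), which takes up iron in roots, had 8.86 and 7.38 in crl1, below background, against 18.9 and 48.3 in wild type (-1.90 ± 0.48, adjusted p = 0.29). NAS1 and NAS2, synthases of the metal chelator nicotianamine, had crl1 arrays above wild type (1.40 ± 0.61 and 0.91 ± 0.49) without passing. Medians were 0.02 over 34 phosphate, nitrate, ammonium and potassium transporters, 0.04 over 29 iron and zinc genes and 0.15 over 22 aquaporins, of which 16 lay above 0.

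Stress and defence genes gave no call either. Of the dehydration genes, RAB16D had 159 and 321 in crl1, against 733 and 777 in wild type (-1.74 ± 0.45, adjusted p = 0.3), and RAB16C was at -1.95 ± 1.00. The list of 12 had 7 below 0 and a median of -0.33, with -0.79 within repetition 1 and -0.18 within repetition 2. HSF25, a heat stress factor, had 786 and 309 in crl1, against 112 and 192 in wild type (1.75 ± 0.63, adjusted p = 0.45), and a second probe set of that gene lay at -0.49. The heat shock list of 40 had a median of 0.04. Chitinases CHIA4A and CHT4 were at -1.76 ± 0.34 (adjusted p = 0.13) and -1.58 ± 0.41 (0.31), in a list of 19 with a median of 0.05.

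The lists for growth and timing had no member past the test. Ribosomal proteins lay above 0 in 19 of 24, with a median of 0.11 that was -0.01 after quantile normalization and 0.36 with the GAPDH ratio in the model. Kinesins, motors on microtubules, lay below 0 in 26 of 34, with a median of -0.12 that was 0.01 with that ratio. The median was 0.06 over 36 cell cycle genes and 0.12 over 6 histones. KRP6, an inhibitor of cyclin-dependent kinases, had 149 and 295 in crl1, against 332 and 439 in wild type (-0.86 ± 0.35, adjusted p = 0.51). All 6 circadian clock genes lay below 0, with a median of -0.38, against -0.05 over all genes. That median was -0.69 within repetition 1, -0.09 within repetition 2 and -0.51 with the GAPDH ratio in the model. PRR37, a pseudo-response regulator, was at -0.78 ± 0.26 with arrays apart (adjusted p = 0.43).

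Over all 33 lists 523 genes were tested and 5 passed, all lower in crl1, which is 0.956%. Over all genes tested 0.14% passed. The lists were chosen with earlier results of these data known, so the shares are a description. The 5 are the 5 named genes above, each in a list of its own.

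**Figure D4:**
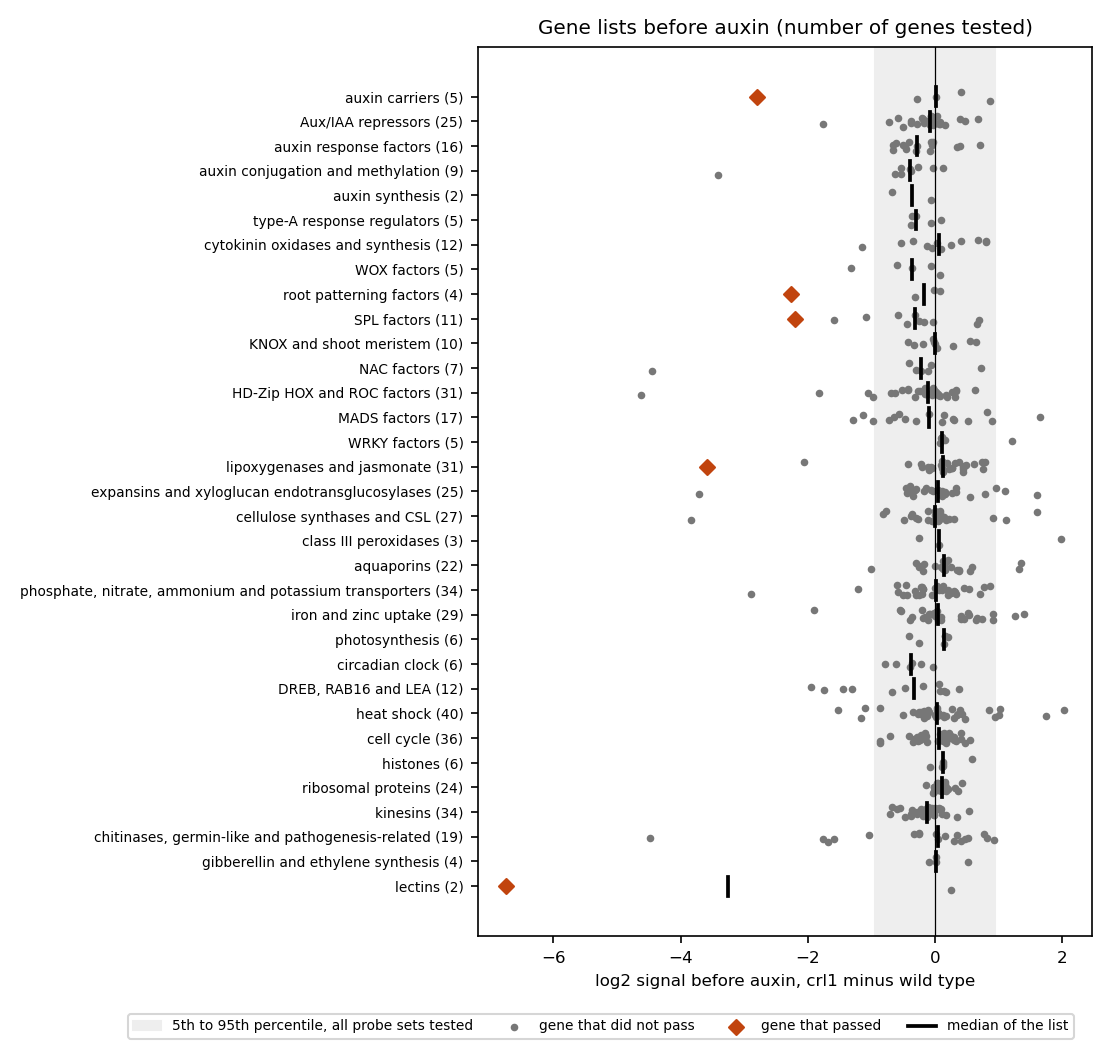
Log2 signal before auxin in crl1 minus wild type (horizontal axis) for every tested gene of 33 lists (rows, number of genes in brackets), with grey points for genes that did not pass, orange diamonds for the 5 that did, and a bar at each list's median; the band is the 5th to 95th percentile of all probe sets tested, -0.94 to 0.94. The 5 diamonds, AGGLUTININ, LOX3, PIN2, RAA1 and IPA1, lie far left of their lists' medians, and NAC076, HOX14, CSLC3, EXPB18 and IAMT1 are among the grey points left of the band.

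A further 38 probe sets passed only when the repetition was a block in the model, 32 lower and 6 higher in crl1. They include the named genes IAMT1, EXPB18, CSLC3 and CHT4 on the lower side. GLU15 (LOC4345463), an endoglucanase that cuts wall glucans, was on the higher side, with 268 and 366 in crl1, against 69.2 and 74.2 in wild type. Its difference was 2.13 ± 0.42 in the model without the block, where it did not pass (adjusted p = 0.14), and its adjusted p with the block was 0.028.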

How the data were processed

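Per the submitters' processing notes, the authors made the deposited intensities with MAS5 in Affymetrix Expression Console (version not given in the sources used here), 1 signal for each probe set of the Affymetrix Rice Genome Array. The trimmed mean (2% cut from either tail) was 100.01 to 100.02 on every array, so arrays had been scaled to a common level. Log2 signals were used without further scaling. Probe sets above the array median on at least 2 of 12 arrays were kept, 32524 of 57194. A model with 1 mean per group was fitted over all 12 arrays with limma (version 3.58.1, R 4.3.3; eBayes with an intensity trend, 6 residual degrees of freedom, median prior 4.79). P-values were two-sided and adjusted by Benjamini-Hochberg over all kept probe sets, with a threshold of 0.05. An exact permutation of 2 against 2 arrays cannot give a p below 0.333. Where both arrays of a group were at or below background, an "at least" fold was set against it.

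Gene names come from the platform annotation and a RefSeq gene table (assembly ASM3414082v1, used for names and gene order), in which all 17905 genes of the 22436 probe sets with exactly 1 gene were found. A gene in a list is represented by its probe set with the highest mean. By rule the text names genes past the threshold, up to 4 members of each list with the largest differences and arrays that do not overlap, and 10 measured genes set by name whatever their p. Members and lists were chosen with earlier results of these data known, and PIN10A, SALT, SHR1, SCR1 and GLU15 were added once their values had been seen. Pairing by number rests on the series' account of independent repetitions. Departures from group means correlated at 0.107 between the untreated genotypes, and above 0.1 in 11 of 15 pairs of groups. On simulated data for the comparison before auxin (35330 probe sets) the test recovered 88% of changes of -3, 58% of -2 and 4% of -1 on the log2 scale, with 3 false calls. The changes were set only in brighter probe sets, with mean signals above those of PIN2 in either genotype. All simulated arrays had the same spread, with no repetition effect and no array that stood apart. The shares therefore do not hold for genes near background. No sequence was used here.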

Additional observations from a re-analysis of the deposited data

Results flagged for a closer look

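For 12 named genes both arrays of crl1 lay on one side of wild type before auxin and on the other side after it. Among all probe sets 9.69% changed side in this way at 2 h or 4 h, and 22.8% of those with arrays apart before auxin. Of the 130 named genes and probe sets 9.23% did, and 9.38% of the 128 with arrays apart before auxin. By limma the change of the genotype difference passed for none of them (adjusted p of at least 0.87 at 2 h and 0.99 at 4 h). Values are the log2 difference after auxin minus that before it. Differences lower in crl1 before auxin and higher after it were found for GH3.1 (1.46 at 4 h), GH3.4 (0.91 at 2 h and 0.63 at 4 h), WOX6 (1.15 at 2 h and 1.27 at 4 h), NAC067 (0.79 at 2 h and 1.00 at 4 h) and CSLA5 (1.09 at 2 h and 1.17 at 4 h). The kinesins KIN14C (0.82) and KIN14I (0.96) turned the same way at 4 h. The opposite turn was found at 2 h for EXP3 (-1.78) and for the ribosomal protein genes RPS3A (-0.70), RPS4 (-0.92) and RPL7A-2 (-0.57), and at 4 h for NIP2-1, a silicon transporter (-0.90).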

How the results depend on the processing

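The 33 calls before auxin became 16 with a filter at the 75th percentile, 52 with array weights and 71 with the repetition as a block. With the block on the 4 untreated arrays alone, an alternative chosen after seeing the data, 343 passed. Leaving out each array in turn gave 0 to 50, the lowest without wild type repetition 1 and the highest without wild type 2 h repetition 2, and 18 or 19 without an array of 4 h. The change of the genotype difference had 0 calls in every setting except 2 h minus 0 h without wild type 2 h repetition 1 (0 to 1022). Among 130 named genes and probe sets 2808 of 3111 alternative values kept direction and side of the threshold, 253 lost the call, 39 gained it and 11 changed sign. On another probe set the sign changed for LOC4325628 (-1.63), OPR5 (-0.15), CESA2 (-1.79), PRX112 (-0.42), RBCS (0.012) and HSF25 (-0.49). With signals floored at background it changed for HSF2 (0.21) and CHIA1D (0.16). With an array left out WOX11 ran from -0.23 to 0.10 and RR1 from -0.039 to 0.23. Of the 33 list medians 10 had the opposite sign after median centring, 2 after quantile normalization and 7 with the GAPDH ratio in the model. The causes were not tested. Signals near background bound what can be said of genes such as PIN2 and WOX9 in crl1.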
